A study of Paralichthys olivaceus with 6 samples.

Results

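The 100 unigenes described here, out of 52474 in the count table, have no listed gene symbol. Each was higher in all 3 sterile gonad libraries than in any fertile one, in some by very little. Among such unigenes they ranked highest by the ratio of the sterile to the fertile mean. A unigene is a transcript contig assembled from the reads without a genome. Counts were expressed as CPM (counts scaled to a column total of 1000000). A member has no symbol in the study's list of 1225 differential unigenes or is not on it, a mean of at least 0.5 CPM in the sterile libraries, and a lowest sterile value above the highest fertile value. These conditions were met by 1572 unigenes, which were ranked by the log2 ratio of the sterile to the fertile mean, with 0.1 CPM added to both, and the first 100 were taken. The fertile and sterile values of all 6 libraries therefore chose the members. Their difference between the groups is given below as a description. A count test on the same contrast is also reported, and nothing is concluded from it about the members.

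The samples were gonads of double haploid (DH) Japanese flounder (*Paralichthys olivaceus*) females aged 5 years, 3 fertile (F1, F2 and F3, labelled ovarian stage V) and 3 sterile (labelled stage III), with 1 library per fish. All descended from 1 wild female and carried a single chromosome set in doubled form, so each is fully homozygous and sisters differ in the maternal alleles they received. Fertility and ovarian stage cannot be told apart in this design. Of the sterile columns, S1 bears the name of a labelled sample. S4 and S5 match no sample by number, end differently in the column name, and were counted as sterile only because of the letter S. The 6 libraries held from 25024469 to 35719683 counts, with S4 the deepest and S5 next. In the paper, the sterile sample S2 has the most clean reads and the sterile sample S3 the next most. By this order of depth S4 matches S2 and S5 matches S3, although the column names do not say so. Depth was not used to place the columns.

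In a fish studied by de novo assembly, genes are named by likeness to transcripts of other species. Contigs remain without a name when they hold only untranslated sequence, are short fragments of a longer transcript, are noncoding RNA, or come from genes that diverged quickly or exist only in some fish. In the ovary, the RNA of a whole gonad mixes oocytes, follicle cells, vessels and blood cells. In such bulk samples, a change in the number of cells of a type and a change in RNA per cell cannot be told apart.

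Of the 100 members, 78 are in the study's list with an empty symbol. The other 22 are not in that list, which holds only unigenes the study called different, so whether they have a name is not known here. The unigene identifiers matched none of the entries of the RefSeq gene table for the species, and the members are called by their identifiers. The functional lists of the study, held here in part, give a symbol to 1 member, Contig24474, which is matched to *Tymp* (thymidine phosphorylase, an enzyme that breaks down thymidine). Its values were 0.310, 0.413 and 0.420 CPM in F1, F2 and F3, and 1.60, 0.420 and 1.74 CPM in S1, S4 and S5. S4 lay at the level of the fertile fish, and S1 and S5 stood clear of them. A second unigene matched to *Tymp*, Contig17453, met the same conditions at rank 148, and S4 was again the lowest sterile library, with 0.560 CPM against 1.08 in S1 and 1.15 in S5.

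Most members were low. Mean sterile CPM ranged from 0.501 to 97.8 with a median of 1.25, and it was under 1 in 38 members and 10 or more in 11. These values are not divided by contig length, so they do not order the unigenes by abundance of their transcripts. The ratio of the sterile to the fertile mean had a median of 3.13 and a range of 2.28 to 43.8, and it exceeded 3 in 59 members and 4 in 23. On the log2 scale with 0.1 CPM added, the median was 1.40 over the members, 0.43 over all 1572 unigenes that met the rule (174 listed without a symbol and 1398 not in the list), 1.19 over the 246 unigenes with a symbol that met the same level and order conditions, all of them in the study's list and so called different on these fish, and -0.09 over all 31783 unigenes with a mean sterile CPM of at least 0.5. Among these 31783, the lowest sterile value lay above the highest fertile value in 5.72%, and the reverse held in 19.7%. Both shares are given for CPM by column total only, and such counts depend on the scaling. With CPM divided by TMM normalization factors, 3653 unigenes met the rule in place of 1572. In edgeR with TMM, the median log2 fold change over all unigenes tested was 0.01. Non-overlap was part of the rule for the members.

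The separation of the groups was often narrow. The lowest sterile CPM was a median of 1.44 times the highest fertile CPM, more than 2 times in 16 members and under 1.1 times in 12. Exact Poisson intervals (95%) of these nearest values, which cover counting error only, were apart in 12 of the 100 members, and the lowest sterile library had a median of 21.5 counts. The share of other unigenes with intervals apart is not given here, so the 12 cannot be called many or few. In 12 members at least 1 fertile library had no count, 10 of them in F2, where 0 counts allow up to 0.103 CPM. No member was without counts in all 3 fertile fish.

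Contig26546 had the largest ratio. It had 0.581, 0.0689 and 0.140 CPM in F1, F2 and F3 (15, 2 and 4 counts), and 2.84, 14.5 and 17.2 CPM in S1, S4 and S5 (71, 519 and 582 counts). The fertile mean was 0.263 ± 0.277 CPM and the sterile mean 11.5 ± 7.64 CPM (SD, 3 fish each), a 43.8-fold difference. All sterile fish were above all fertile fish, and S4 and S5 stood well above S1.

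Contig28762, the second in rank, showed the same arrangement, with 0.426, 0 and 0.0699 CPM in F1, F2 and F3, and 0.719, 5.40 and 4.70 CPM in S1, S4 and S5. Its S1 value was closer to F1 than to S4 or S5.

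The members at ranks 3 and 4 had another arrangement, with S5 rather than S1 at the fertile level. The single contig c18519_g4_i4_876_20018 had 0.0775, 0.0689 and 0 CPM in F1, F2 and F3, and 1.44, 1.15 and 0.118 CPM in S1, S4 and S5. Contig16143 had 0.116, 0.172 and 0.210 CPM in the fertile libraries, and 2.64, 1.29 and 0.266 CPM in S1, S4 and S5. For both, the S5 value rests on few counts, 4 and 9.

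Contig14900, at rank 5, had counts in only 1 fertile fish, with 0.455 CPM in F3, and 1.88, 0.896 and 0.975 CPM in S1, S4 and S5. Contig17653 was similar with F2 as the exception, at 0.379 CPM against 0 counts in F1 and F3, and its sterile values were 0.919, 0.812 and 0.916 CPM. Contig23574, at rank 11, had the most even sterile values of the first 15, 0.679, 0.70 and 0.679 CPM, against 0.271 CPM in F1, 0 counts in F2 and 0.0350 CPM in F3. In these 3 unigenes S1, S4 and S5 all stood above the fertile fish, and in each a single fertile fish held most of the fertile counts. Over the 100 members, the highest fertile library was more than 3 times the middle one in 8.

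The rest of the first 15 were Contig25804, Contig28445, Contig19106, Contig25563, Contig22790, Contig25380, Contig19095 and c16924_g1_i1_436_22904, with log2 ratios from 2.37 down to 1.89. S5 was the highest sterile library in all of these but Contig22790, where S4 was. S1 was the lowest in all but Contig25804, where S4 was. The last of them, c16924_g1_i1_436_22904, was barely apart in S1, with 0.280 CPM against 0.271 CPM in F1.

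**Figure D1:**
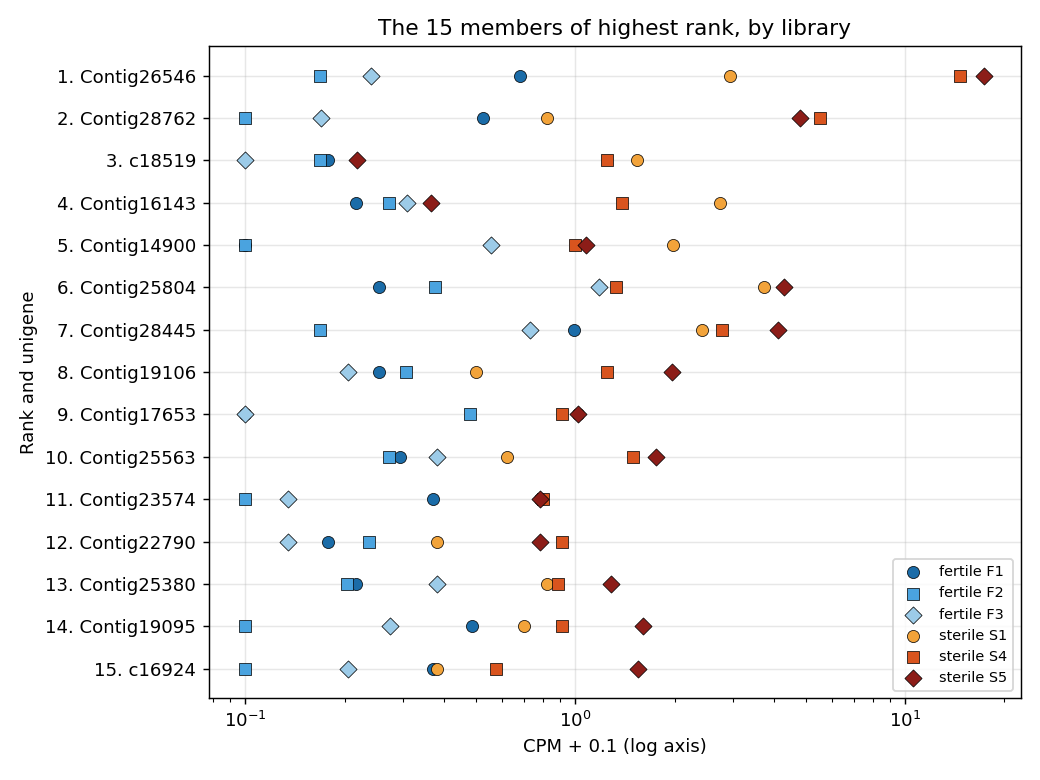
CPM + 0.1 on a log axis (horizontal) for the 15 members of highest rank (vertical), with 1 point per library, blue for the 3 fertile and orange to dark red for the 3 sterile libraries. S4 and S5 stand far to the right of S1 in Contig26546 (14.5 and 17.2 against 2.84 CPM) and Contig28762, whereas S5 lies beside the fertile points at ranks 3 and 4.

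At the threshold of the ranking, the last members were Contig20040, c18442_g3_i1_294_23077 and Contig17588, with log2 ratios of 1.18, 1.18 and 1.17. The first unigenes left out were Contig22954, Contig19199 and Contig23910, with 1.17, 1.16 and 1.15. Nothing in the values separates the 2 sides.

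Next, the values were compared among the sterile fish, since S1 differs from S4 and S5 in the column name and in the certainty of its label. S1 was the lowest sterile library in 45 of the 100 members, S4 in 40 and S5 in 15. Over all unigenes with a mean sterile CPM of at least 0.5, S1 was the lowest in 20.6%, S4 in 28.9% and S5 in 50.6%. Over the 1572 unigenes that met the rule, these shares were 32.4%, 37.3% and 30.3%, so the rule itself moves them. S5 was the highest in 64 members, against 21.5% of all unigenes of that level and 39.3% of the 1572. These values for S5 are given for CPM by column total only. S5 had the lowest TMM factor of the 6 libraries (0.913), so division by these factors would raise it relative to the others, in members and background alike. Among the named unigenes that met the same conditions, S1 was the lowest in 37.8% and S5 the highest in 62.6%, close to the members' count for S5.

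S1 was more than 2 times the fertile mean in 74 members, S4 in 69 and S5 in 97, and all 3 were in 55. The median log2 ratio over the fertile mean was 1.16 for S1, 1.15 for S4 and 1.85 for S5. The share of S1 in the sterile difference was taken as its log2 ratio over the fertile mean divided by that of the mean of S4 and S5, so that a share of 1 puts S1 level with the other sterile fish. Its median was 0.730 (quartiles 0.510 and 1.20), it was above 1 in 32 members and under 0.5 in 24. Over all 1572 unigenes that met the rule, its median was 0.950, and it was above 1 in 723 and under 0.5 in 226. In the members, the same share had a median of 0.746 for S4 and 1.36 for S5, against 0.878 and 1.03 over the 1572. S1 and S4 were thus alike in the middle of the list, and S5 stood above both.

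The lowest shares of S1 were 0.123 in Contig25513, 0.216 in Contig17901, 0.306 in c12134_g1_i2_1062_22291, 0.313 in Contig26279 and 0.337 in c16924_g1_i1_436_22904. Contig25513 had 0.697, 0.620 and 0.524 CPM in F1, F2 and F3, and 0.719, 1.57 and 2.63 CPM in S1, S4 and S5. S1 was at the level of F1 there, with 18 counts in each of the 2 libraries. At the other end, the share was 2.13 in c1093_g1_i2_358_13349, 2.04 in Contig15455, 1.95 in Contig16143, 1.93 in Contig16894 and 1.78 in Contig550. Contig550 had 1.20, 2.48 and 1.78 CPM in the fertile and 5.87, 3.28 and 3.78 CPM in the sterile libraries, with S1 the highest of the 6.

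**Figure D2:**
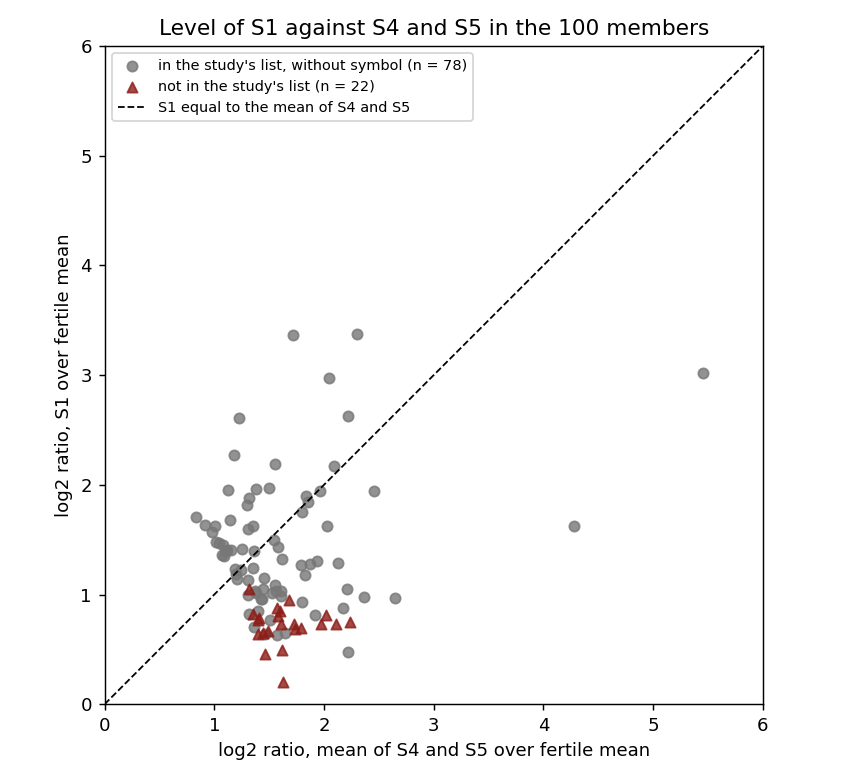
Log2 ratio of S1 over the fertile mean (vertical) against that of the mean of S4 and S5 (horizontal), both with 0.1 CPM added, for the 100 members. Points on the dashed line have S1 level with S4 and S5. The 22 members not in the study's list (triangles) all lie below the line, and 32 of the 78 listed without a symbol (circles) lie above it.

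Because the members were chosen on all 6 libraries, the choice was repeated with each library left out in turn, and the left-out library was then read. The rule on F1, F2, F3, S4 and S5 was met by 2689 unigenes. In the first 100 of these, S1 was above the highest fertile value in 68, against 59.3% of all 2689. Without the order condition, that share was 25.6% of the 31404 unigenes without a listed symbol and with a mean of at least 0.5 CPM in S4 and S5. The median log2 ratio of S1 over the fertile mean was 0.75 in the 100, 1.72 for S4 and S5, which had chosen them, and -0.04 in the 31404. When S4 was left out, it was above the highest fertile value in 84 of the 100, against 53.9% of all unigenes that met the rule without it (18.9% with no order condition), with a median log2 ratio of 0.89. For S5 the count was 75, against 53.0% (17.0% with no order condition), with a median of 0.95. The fertile values took part in these choices, which favours a left-out sterile value above them.

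The fertile libraries were read in the same way. Without F2, 73 of the 100 unigenes chosen had F2 below the lowest sterile value, against 72.0% of all that met the rule without it (22.1% with no order condition). Without F1, 58 did in F1, against 56.7% (15% with no order condition). Without F3, 48 did in F3, against 57.1% (14.2% with no order condition). For F1 and F2 the first 100 were thus close to the rest that met the rule, and for F3 they were lower. Here the sterile values took part in the choices, which favours a left-out fertile value below them. The members themselves depended on the libraries used. Of the 100, from 47 (without F3) to 79 (without S4) were chosen again, and 60 were chosen without S1.

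**Figure D3:**
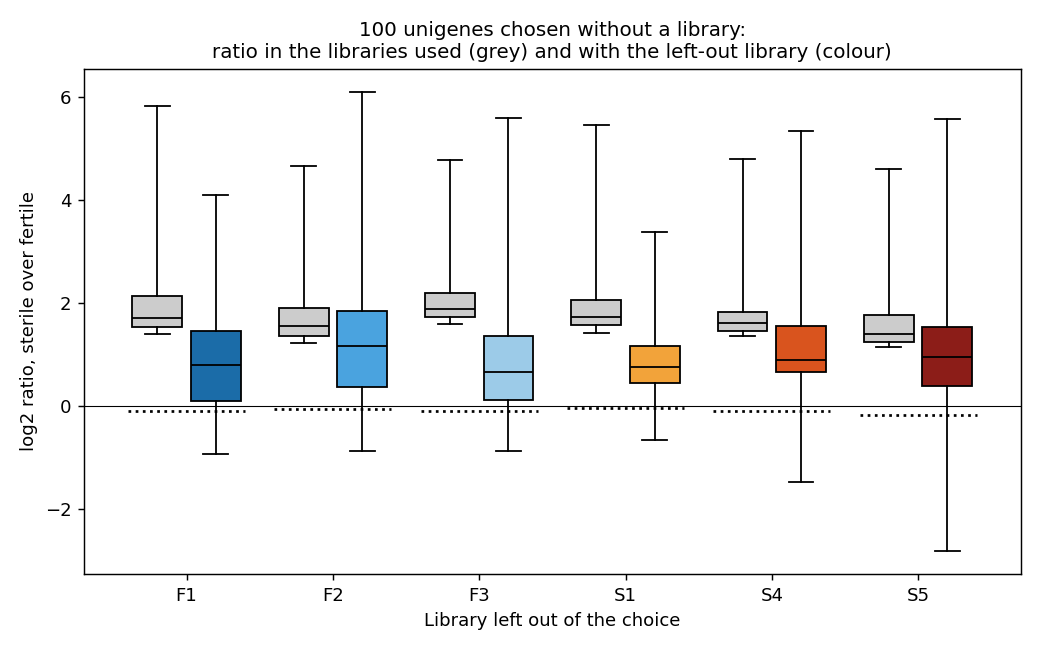
Log2 ratio of sterile over fertile (vertical) for the 100 unigenes chosen without the library named below each pair of boxes. Grey boxes use the libraries that chose them and coloured boxes the library left out, with median lines, boxes from the first to the third quartile, whiskers to the lowest and highest value, and dotted lines at the median of all unigenes of that level with no order condition. The coloured medians lie between 0.65 (F3) and 1.17 (F2), under the grey ones and above the dotted lines. Values of the opposite group took part in each choice, which favours coloured values above the dotted lines.

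In edgeR's quasi-likelihood fit over all unigenes that passed its low-count filter (35787), 93 of the 100 members were tested, and 3 were called higher in sterile gonads (fold change above 2, Benjamini-Hochberg *p* under 0.05), against 0.0559% of all unigenes tested. At an unadjusted *p* under 0.05 with the same fold change, the count was 93, against 1.87%. The members were chosen on this contrast, so nothing follows from either count. The 3 were Contig26790, Contig26881 and Contig18894, named here after their values were seen, with log2 fold changes of 1.93, 2.72 and 1.75 (SE 0.25, 0.36 and 0.22). Contig26790 had 2.25, 1.65 and 2.69 CPM in F1, F2 and F3, and 5.59, 8.68 and 8.74 CPM in S1, S4 and S5. Contig18894 had 0.659, 0.999 and 0.769 CPM in the fertile and 2.36, 2.74 and 2.48 CPM in the sterile libraries. Contig26881 had 0.0775, 0.103 and 0.105 CPM (2, 3 and 3 counts) against 0.599, 0.532 and 0.679 CPM (15, 19 and 23 counts), so its fold change rests on few fertile counts. Relative to the group mean, the spread within each group was smaller in these 3 than in Contig26546 and Contig28762, at ranks 1 and 2. It was not smaller than in all members of high rank, since Contig17653 and Contig23574 had more even sterile values than Contig26790. The test itself favours unigenes of low spread. The number called was 45 with DESeq2 and 1 with limma-voom, 6 without S1 and 1 without S4. The shares of all unigenes called under these settings are not given here, so nothing follows from these counts either.

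The members did not form a single pattern. When they were sorted by the order of the 3 sterile libraries, 36 had S1 lowest and S5 highest, 28 had S4 lowest and S5 highest, and 12 each had S1 highest with either S4 or S5 lowest. The remaining 12 had S4 highest, 9 with S1 and 3 with S5 at the bottom. Where the sterile values of a member lie close together, counting error can set this order. Over the 1572 unigenes that met the rule, S1 was lowest and S5 highest in 18.4%, and S4 lowest and S5 highest in 20.9%. Over the 246 named unigenes that met the same conditions, these shares were 30.9% and 31.7%, so neither order is particular to the members. Among the fertile fish, F2 was the lowest in 52 members. That share was 45% of all unigenes with a mean sterile CPM of at least 0.5, and 53.1% of the 1572 that met the rule. It was 69.1% of the 246 named unigenes that met the same conditions, so a low F2 is not particular to the members. F2 was lowest in 39 of the 64 members with S5 highest, and in 13 of the other 36. This joint count was made for the members only, so it cannot be called particular to them.

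**Figure D4:**
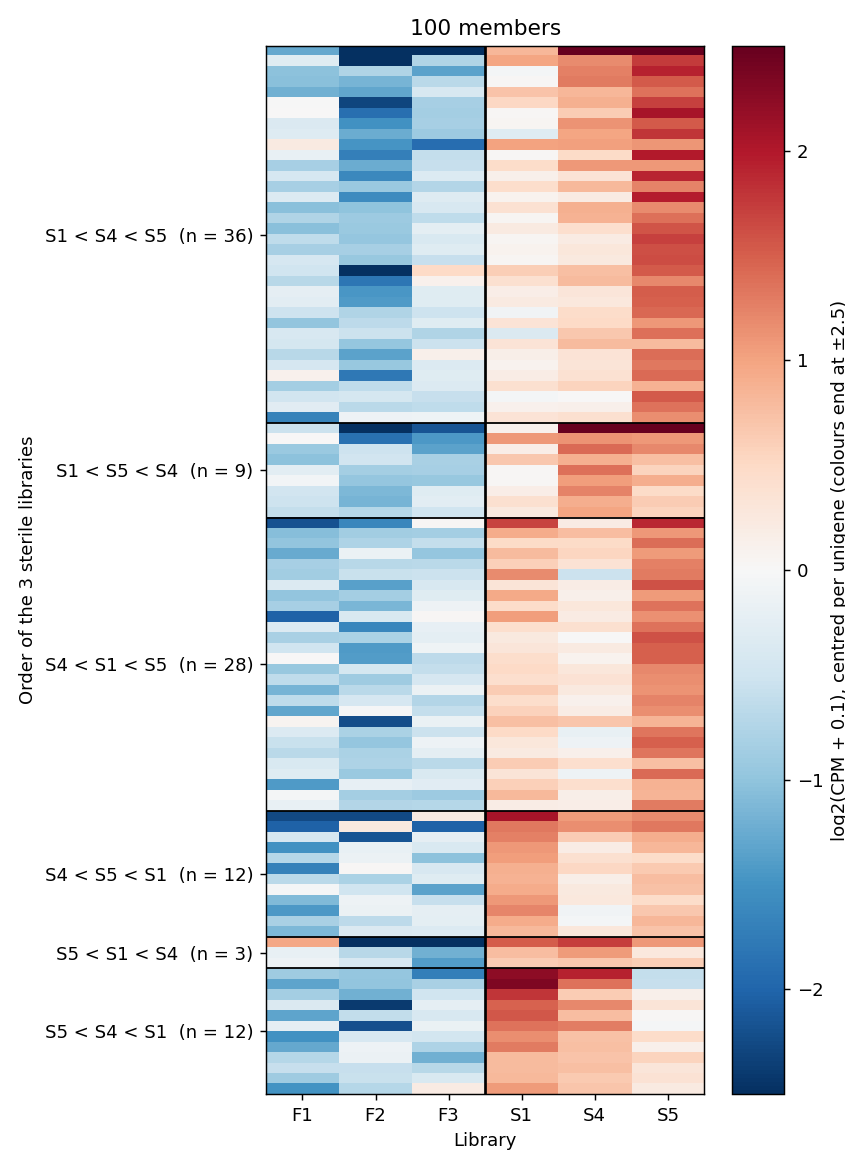
Log2(CPM + 0.1) of the 100 members (rows), centred on the mean of each unigene, in the 6 libraries (columns), with rows grouped by the order of the sterile libraries. Blue is below and red above the unigene's mean. The largest blocks are those with S5 highest, 36 with S1 lowest and 28 with S4 lowest, and in the last block, of 12, S1 is highest and S5 lowest.

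The 22 members outside the study's list were not called different by the study, although their means differed more than 2-fold, which favours members with a wide spread within a group. The split is therefore given as a description. In all 22, S5 was more than 2 times the mean of S1 and S4 (median 2.55), and S1 was below the mean of S4 and S5. Among the 78 members listed without a symbol, 10 had such an S5 value, and 58 of all 1572 unigenes that met the rule did (3.69%). F2 was the lowest fertile library in 18 of the 22. They held 9 of the 11 members with a mean sterile CPM of 10 or more.

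Contig10253 had the highest CPM of these, and of all members. It had 47.9, 20.3 and 45.2 CPM in F1, F2 and F3 (1237, 590 and 1292 counts), and 62.9, 69.2 and 161 CPM in S1, S4 and S5 (1575, 2473 and 5459 counts). S1 and S4 were close to each other and S5 was more than 2 times either. Contig22839 (42.5, 32.5 and 33.5 CPM in the fertile, and 56.3, 56.7 and 134 CPM in the sterile libraries), Contig17136 and Contig21705 were arranged in the same way. In contrast, Contig13528, the only one of the 5 members of highest CPM that is in the list, had 8.21, 9.23 and 12.2 CPM in the fertile libraries and 27.7, 14.1 and 26.0 CPM in S1, S4 and S5, with S4 the lowest.

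To describe which unigenes varied together, each profile of log2(CPM + 0.1) was centred on its own mean over the 6 libraries, and 2 profiles were compared by their mean absolute difference. With only 3 fish in a group, no correlation was computed. Among the unigenes with a mean of at least 0.5 CPM over the 6 libraries, 72 were members. The nearest to Contig10253 was another member, Contig25874, at a mean difference of 0.04 on the log2 scale, which had 3.25, 1.41 and 3.15 CPM in the fertile and 4.64, 4.70 and 11.3 CPM in the sterile libraries. Next came the member Contig26409 (0.11) and then the leading named unigene, *cst3* (Contig28653, 0.12), whose product cystatin C is a secreted inhibitor of cysteine proteases. *cst3* had 366, 199 and 367 CPM in F1, F2 and F3, and 547, 686 and 1325 CPM in S1, S4 and S5. Thus F2 was the lowest and S5 the highest library for all 4.

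When members closer than 0.15 were joined, a limit set after the values were seen, there were 2 groups of 10 members, 2 pairs, and 48 that stood alone. Counting error can by itself keep unigenes of few counts further apart than 0.15. The 48 are therefore not shown to have distinct profiles, and no comparison with other unigenes of like counts is given. Each group of 10 held 9 members outside the study's list, and S5 was the highest library in all 20. In the first group, with Contig10253, Contig23231, Contig8843 and Contig27547, F2 was the lowest fertile library in all 10 and S5 was from 2.09 to 3.55 times the mean of S1 and S4. In the second, with Contig21705, Contig17136 and c18881_g2_i1_3228_23122, F2 was lowest in 7 and S5 was from 2.29 to 3.01 times that mean. Contig23231 had 8.06, 2.75 and 6.08 CPM in the fertile and 9.43, 12.8 and 36.5 CPM in the sterile libraries. The treatment of reads with more than 1 matching contig is unknown, so contigs of shared sequence may carry each other's reads, and the groups may count a transcript more than once.

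**Figure D5:**
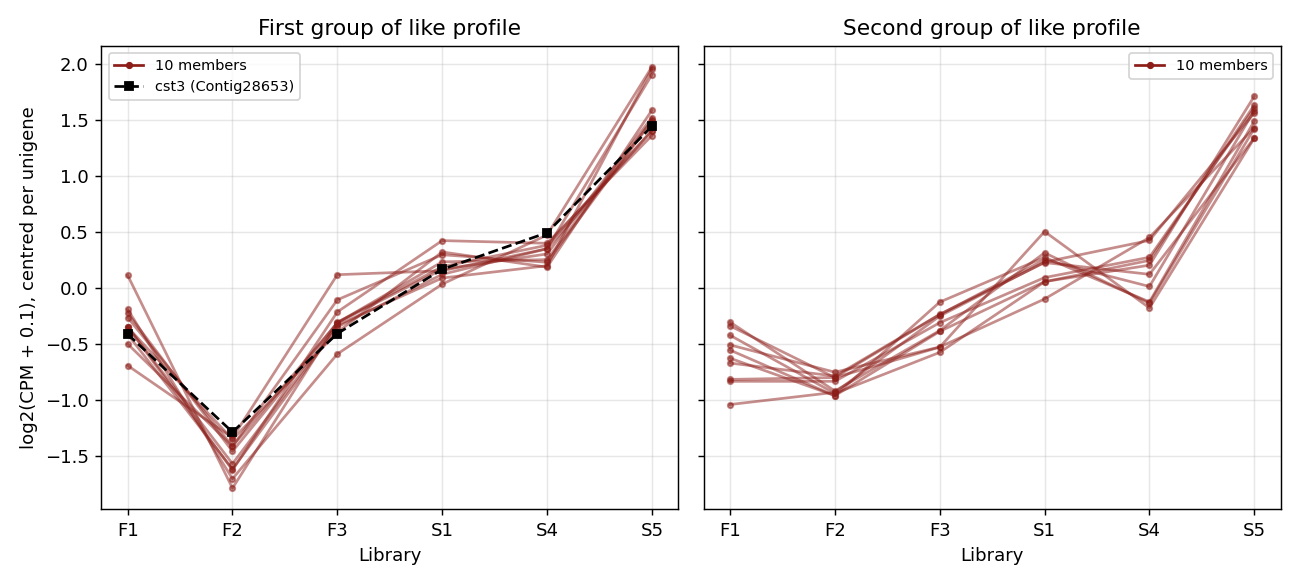
Centred log2(CPM + 0.1) (vertical) in the 6 libraries (horizontal) for the 2 groups of 10 members of like profile, with lines joining the values of a unigene and *cst3* dashed in the first panel. F2 is the lowest library and S5 the highest in every member of the first group, and S5 is the highest in every member of the second.

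Contig26546 had no close match. Its nearest unigenes were the member Contig28762 at a mean difference of 0.58, *apoc2* (Contig18042, an apolipoprotein that activates lipoprotein lipase) at 0.61 and *cpa4* (Contig28520, a carboxypeptidase) at 0.75. *apoc2* had 0.465, 0.0344 and 0.140 CPM in the fertile and 1.16, 4.84 and 6.09 CPM in the sterile libraries. It was also the nearest unigene to Contig28762, at 0.22. In all of these, F1 was the highest fertile library and S1 the lowest sterile library. These neighbours are given as likeness over 6 libraries alone. The comparison with Contig28762 was added after its values were seen.

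Markers of other cell types moved along some of these patterns. Their symbols come from the study's list, so they were chosen on these fish. The 10 leukocyte unigenes covered all 8 symbols, among them *itgb2* and *spi1b*. They summed to 5.61 to 9.40 CPM in fertile and 19.1, 14.8 and 26.5 CPM in S1, S4 and S5. Of the 10, 8 had S4 lowest and S5 highest, an order that 28 members shared. It was also the order of 31.7% of the 246 named unigenes that met the same conditions, and of 20.9% of the 1572 that met the rule. The 4 exocrine pancreas unigenes (all 3 symbols found) summed to 0.654 to 1.78 CPM in fertile and 2.96, 8.48 and 11.7 CPM in S1, S4 and S5. S1 was the lowest sterile library in all 4, as in 45 members and in 37.8% of those 246 named unigenes. The erythrocyte marker *ba1l*, a beta globin, had 0 to 0.241 CPM in fertile fish, 0.120 CPM in S1, 7.33 CPM in S4 and 3.25 CPM in S5. The 6 muscle unigenes summed to 1.34 to 3.29 CPM in fertile and 4.14 to 6.59 CPM in sterile fish, with S1 the highest sum. Of these 6, 3 had S4 lowest and S5 highest, the order seen in most leukocyte unigenes. No leukocyte, pancreas, erythrocyte or muscle marker was at 0 counts in all fertile fish. All sterile libraries lay above all fertile ones in 9 of the 10 leukocyte, 3 of the 4 pancreas and 4 of the 6 muscle unigenes. They did not in *ba1l*. The pancreas exception was an *ela2* unigene (Contig19244), with 0.280 CPM in S1 against 0.387 in F1 and 0.420 in F3. In S5, *cpa4* made up 7.71 of the 11.7 CPM of the pancreas sum. The 10 unigenes of steroid-producing ovarian cells, with all 7 symbols found, summed to 29.7 to 51.5 CPM in fertile and 9.52 to 14.9 CPM in sterile fish, opposite to the members, and the 2 meiotic genes *sycp3* and *spo11* to 0.769 to 1.1 and 0.236 to 0.280 CPM. Mitochondrially encoded unigenes summed to 10523 to 21273 CPM in fertile and 3353 to 5048 CPM in sterile fish, nearly all of it in 1 *COX1* unigene. Of the other 5, 4 had 0 counts in all fertile libraries, and all 5 had 0 counts in S1 but from 15 to 67 counts in S4 and 7 to 44 in S5. The part of any of these in the members' values was not tested.

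The identifiers of the members took 2 forms. Identifiers that begin with Contig made up 75 of the members, against 81.3% of all unigenes with a mean sterile CPM of at least 0.5. The other 25 have the form of single assembled contigs, whose running number falls into 6 blocks within each of which the component numbers climb. In blocks 1 to 6 the library most often highest was F1, F2, F3, S1, S4 and S5, in that order (44.0% to 55.8% of the contigs of a block that had counts). The sources used here do not say what the blocks are. None of the 25 single members lay in blocks 1 to 3, while 4 lay in block 4, 9 in block 5 and 12 in block 6. Since the blocks go with the library that is highest, and the rule asks for high sterile values, the rule favours blocks 4 to 6. How far this accounts for the absence of members from blocks 1 to 3 was not tested. Of the single contigs that met the rule below rank 100, 7.51%, 9.22% and 11.6% lay in the first 3 blocks, and 16.7%, 26.6% and 28.3% in the others. Only 1 pair of members, c20181_g3_i1_710_23369 and c20181_g3_i2_688_23370, were variants of the same component in the same block, with 1.76, 1.48 and 2.90, and 0.839, 0.616 and 1.30 CPM in S1, S4 and S5, so that S4 was lowest and S5 highest in both.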

How the data were processed

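RNA from gonads of 6 DH females was sequenced as paired ends. The authors filtered the reads, assembled contigs with Trinity, merged those of the 6 samples with CAP3, aligned the reads back with BWA and deposited counts per unigene, not normalized. BWA 0.7.8-r455 is named in the submitters' processing notes, and the counter is Picard in the methods and HTSeq in those notes. Multi-mapping and strand settings are not given in the sources used here, and 0 per-sample columns were left unused.

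Counts were divided by column totals (CPM) with Python 3.11.15, pandas 2.3.3 and scipy 1.17.1. Depth was from 25024469 to 35719683 counts. The fit across all unigenes used R 4.3.3 and edgeR 4.0.16 (TMM, default filterByExpr, glmQLFTest, Benjamini-Hochberg), with DESeq2 1.42.0 and limma 3.58.1 as alternatives. A check of the edgeR fit on simulated counts required only that the median estimated fold change lay near the one put in. It set no condition on the unigenes called. The blocks of identifiers, the joining limit of 0.15 and the pseudocounts in the choice were added after seeing the data.

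The members, lists and markers were chosen with earlier results of these data known. Named members are the 15 of highest rank, the 5 of highest CPM, the 5 highest and 5 lowest S1 shares, 3 on each side of rank 100, those with a symbol in the functional lists (held in part), and nearest profiles to the members of first rank and of highest CPM. Columns S4 and S5 were placed in the sterile group by letter, and 0 unigene identifiers were found in the RefSeq table. Replicates are separate fish by the labels, although the protocol mentions pooled RNA. Sequences are not shown. The nearest profile to 1 further member is not reported here.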

Additional observations from a re-analysis of the deposited data

How the results depend on the processing

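The 1572 unigenes that met the rule depended on the scaling. With CPM divided by TMM, RLE or upper-quartile factors, whose group means move the log2 ratio of sterile over fertile by 0.11, 0.11 and 0.13 (each unigene by more or less, since the factors differ within a group), the count was 3653, 3556 and 4023, and 95, 95 and 94 of the members were chosen again. With no minimum CPM it was 2455 (64 chosen again), and with 1 library left out it was from 2183 to 2953. Adding 0.5 or 1 CPM in place of 0.1 gave a median log2 ratio of 0.98 and 0.72 for the members against 1.40, and chose 78 and 57 of them again. With 1 library left out that median was from 1.21 to 1.56. S1 was the lowest sterile library in 45 members and in 49 or 50 under the other scalings, and its median share was 0.730 and from 0.683 to 0.702 under the other scalings and added values. Of the members, edgeR called 3, DESeq2 45 and limma-voom 1, and edgeR from 1 to 6 with 1 library left out. The share over all unigenes tested was 0.0559% in the main edgeR fit and is not given for the others. The members were chosen on this contrast, so nothing follows from these counts. No cause was tested. No paired analysis was possible because only S1 carries a replicate number shared with a fertile library. The paper and the sample labels describe no pairing of fertile with sterile fish, so this shared number was not read as a pair. For 8 members the lowest sterile library held under 10 counts, which limits what their order can show. The same holds for members with close sterile values, such as Contig22795, with 0.599, 0.616 and 0.591 CPM in S1, S4 and S5.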
